A study of Homo sapiens with 32 samples.

Results

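The 36 human genes for aminoacyl-tRNA synthetases were followed in a map of where Alyref, Chtop and Nxf1, proteins that carry mRNA out of the nucleus, touch RNA. The list was fixed by name, 20 genes for the cytosolic and 16 for the mitochondrial enzymes, out of 64449 annotated genes. All 36 carried crosslinks in each of the 3 factors, down to 1 tag in Nxf1, but 34 also did in the Control with the FLAG tag alone.

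Aminoacyl-tRNA synthetases join each amino acid to its tRNA, the step that gives the genetic code its meaning in translation. Cells hold a cytosolic set and a mitochondrial set, both encoded in the nucleus, so that the mRNAs of both sets are made and exported through the same route. GARS1 and KARS1 also make the mitochondrial enzyme and are counted here with the cytosolic genes. Several cytosolic enzymes are held together in the multi-synthetase complex, here EPRS1, IARS1, KARS1, LARS1, MARS1, QARS1 and RARS1. The genes are housekeeping genes and most of them have many short exons, with exceptions such as MARS2, whose canonical transcript has 1 exon of 3027 nt.

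The method was iCLIP, in which UV light links a protein to the RNA it touches in living cells, the protein is immunoprecipitated, and the base next to the end of the cDNA marks the contact. A tag is 1 deduplicated read at its crosslinked base. Levels are in CPM (tags out of every 1000000 of the library), divided by length in kb where genes or exons are set side by side. Alyref and Chtop belong to TREX, the complex that couples mRNA synthesis to export, and Nxf1 is the receptor that takes mRNA through the nuclear pore. Each was FLAG-tagged in stable FlipIn HEK293T cells, as the labels name them (FlpIn-293 in the growth protocol, an established line from human embryonic kidney in which a transgene is placed at 1 defined locus) and precipitated through the tag.

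Alyref and Chtop cells had received tetracycline at 10 ng/mL and Nxf1 cells at 5 ng/mL, in each case for 48 h, while Control cells expressed the FLAG tag alone and no dose is given for them. Each of these 4 groups held 3 libraries, and no source used here says that they came from separate cultures, so that the p-values measure the spread between these samples. Libraries held from 7017 tags in Control replicate 1 to 631704 in Alyref replicate 2, and replicate 1 was the shallowest of every group, down to 8134 tags for Nxf1. Of 7 marker genes of the HEK293 line, 7 carried tags in Alyref and 6 in Chtop, although NEFM had a single tag, and of 8 blood, fibroblast and liver markers 6 had at most 1 tag in every group, while COL1A1 had 30 tags in Alyref. Among the tagged factors' own genes, CHTOP was highest in the Chtop group at 262 CPM and NXF1 in the Nxf1 group at 235, whereas ALYREF had 30.4 in the Alyref group and 45.7 in the Nxf1 group. No input RNA was measured, so that more RNA and more binding per RNA cannot be told apart for any level given here.

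Contacts on these genes were spread thinly over many bases. The 36 genes held 8828 crosslinked bases, of which 617 had more than 1 tag and the highest had 6. Contacts that recurred were 535 bases in at least 2 libraries and 61 in at least 3, on 10 genes. Of those 61 bases, 42 were coding, 53 were uracil and 1 also carried a Control tag.

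The bases met in 4 libraries are shown with 12 nt on either side, 5′ to 3′ on the gene strand from GRCh37, the crosslinked base in capitals, because they are the contacts seen most often. Of the 4, 3 lie in LARS1, the leucyl enzyme, and the base in exon 25 had a tag in all 3 Chtop libraries. The VARS2 base lies in an exon of another isoform than the canonical one.
LARS1 exon 10, chr5:145537158-145537182, minus strand: aggtaaaaatatTttcttggtggct
LARS1 exon 25, chr5:145509644-145509668, minus strand: tgtgttccggttTattgaagttcag
LARS1 intron, chr5:145500057-145500081, minus strand: ttgttgttttccTagcctggtgtgt
VARS2, chr6:30882531-30882555, plus strand: ggagtgacccttCtccacccccata

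A base in exon 12 of IARS1, the isoleucyl enzyme, was crosslinked once in each of the 3 Alyref libraries and in no other.
IARS1 exon 12, chr9:95033263-95033287, minus strand: cagctaccctttTtgctggaggtca

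The other 4 recurrent intron bases are shown because, like the LARS1 intron base above, they lie at the very end of an intron. In the LARS1 sequences the capital is 3 nt before the next exon, the base ahead of the AG that ends the intron, and in MARS1, the methionyl enzyme, it is 4 nt before it. The MARS1 base is the one with a Control tag.
LARS1 intron, chr5:145503640-145503664, minus strand: cattttggctatTaggaaaatctgg
LARS1 intron, chr5:145540040-145540064, minus strand: attttccttttaTaggtagactggc
LARS1 intron, chr5:145551544-145551568, minus strand: attttatttctgTagtttgctgtag
MARS1 intron, chr12:57892187-57892211, plus strand: ccatattcccttGcaggtactctcg

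Summed over the 36 genes, Alyref had 5762 tags, Chtop 2890, Nxf1 708 and Control 195. As a share of all tags of a library this was 0.418% ± 0.048 (SD, n = 3) in Alyref and 0.273% ± 0.023 (SD, n = 3) in Chtop. The Nxf1 share was 0.227% ± 0.027 (SD, n = 3) and the Control share 0.265% ± 0.142 (SD, n = 3). Each of the 3 Alyref libraries lay above each of the Chtop libraries, the lowest at 0.370% with a 95% Wilson interval of 0.331% to 0.414%, and the highest Chtop library at 0.291%. The Control libraries ran from 0.130% to 0.413%, a range that held every Chtop and Nxf1 library and the lowest Alyref library, while the other 2 Alyref libraries lay above it at 0.416% and 0.467%. All such intervals cover counting error only.

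**Figure D1:**
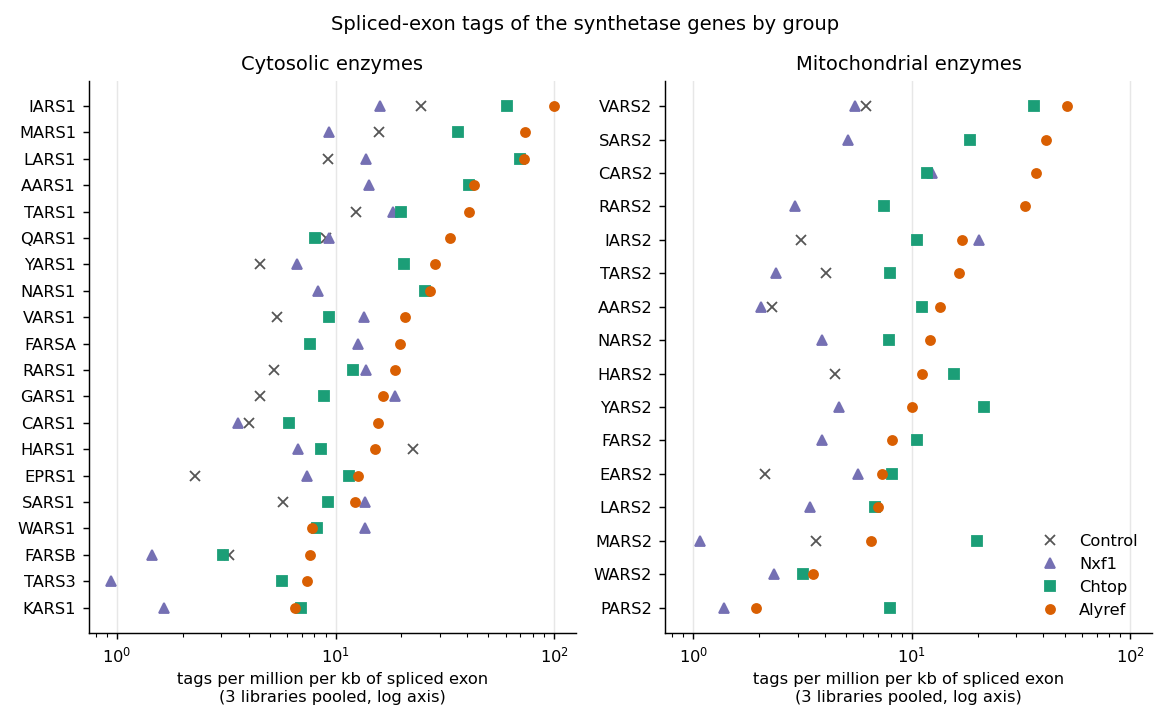
CPM per kb of spliced exon (log scale) for each synthetase gene, 1 mark per group with its 3 libraries pooled, cytosolic genes on the left and mitochondrial genes on the right, ordered by Alyref. IARS1, MARS1 and LARS1 lie highest, and groups at 0 are not drawn, which are the Control in 15 of the 36 genes and Nxf1 in 1, HARS2.

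The levels differed widely between genes. In Alyref they went from 7 tags on PARS2, the mitochondrial prolyl enzyme, through a median of 116 to 871 on IARS1, and in Chtop from 17 through 54.5 to 454 on LARS1. IARS1 and LARS1 alone took 26.5% of the synthetase tags of Alyref and 29.6% of those of Chtop. KARS1, the lysyl enzyme, and PARS2 had no tag in the Control.

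Per kb of spliced exon, the 4 cytosolic genes with the highest mean level over the 9 factor libraries were IARS1 at 57.4 CPM per kb, LARS1 at 57.1, MARS1 at 43.5 and AARS1, the alanyl enzyme, at 36.5. Of these, IARS1, LARS1 and MARS1 encode enzymes of the multi-synthetase complex. In Alyref alone, however, KARS1 of the same complex had a mean of only 4.58 CPM per kb, where IARS1 had 100. The genes of the complex thus lay both at the top and near the bottom of the list. The 4 highest mitochondrial genes were VARS2 (valyl) at 30.1, SARS2 (seryl) at 19.3, CARS2 (cysteinyl) at 18.6 and IARS2 (isoleucyl) at 18.0.

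IARS1 (chr9:94972489-95056136, minus strand, 34 exons) had 52, 441 and 378 tags in Alyref replicates 1 to 3, 16, 215 and 170 in Chtop, 1, 28 and 22 in Nxf1, and 8, 11 and 1 in Control. LARS1 (chr5:145490129-145562259, minus strand, 32 exons) had 33, 336 and 289 in Alyref, 25, 197 and 232 in Chtop, 5, 25 and 32 in Nxf1, and 2, 14 and 1 in Control. The mean level of IARS1 was 655 CPM in Alyref and 378 CPM in Chtop, while LARS1 was at 472 and 479 CPM, so that the pair that leads the list was not ordered alike in the factors. In the Control, 8 tags on IARS1 in the shallow replicate 1 make its mean of 468 CPM rest largely on that library.

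MARS1 (chr12:57869228-57911352, plus strand, 21 exons) had 22, 149 and 152 tags in Alyref, 7, 65 and 50 in Chtop, 1, 11 and 9 in Nxf1, and 3, 5 and 1 in Control. AARS1 (chr16:70285886-70323610, minus strand, 21 exons) had 19, 156 and 124, 8, 109 and 78, 1, 12 and 17, and 1, 3 and 1 in the same order. VARS2 (chr6:30881982-30894236, plus strand, 30 exons) had 23, 148 and 130 in Alyref, 5, 87 and 62 in Chtop, 0, 4 and 5 in Nxf1, and 2, 0 and 0 in Control. Among the mitochondrial enzymes VARS2 had the most exon tags in both TREX subunits. It lies wholly within a long non-coding RNA gene annotated on the same strand, as MARS2 does in another, so that its tags cannot be given to 1 gene only.

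Alyref against Chtop asks which of the TREX subunits was met more on a given mRNA. Of the 36 genes 14 passed the filter on low counts, and 4 of these had more tags in Alyref at an adjusted p under 0.05 (edgeR quasi-likelihood test, Benjamini-Hochberg over 3864 genes), where 14.1% of all genes tested passed, 5.15% higher and 8.90% lower in Alyref. The 4 were RARS2, CARS2, VARS1 and MARS1. The median log2 difference of the 14 was 0.73, positive in 13 of them, against 0.02 over all genes tested. The filter asks for a set level in only 3 libraries, as many as 1 group holds. A gene could thus enter through the Alyref libraries alone, so that the count of signs is not free of that selection. All genes went through the same filter.

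RARS2 (chr6:88223177-88299746, minus strand, 20 exons), the mitochondrial arginyl enzyme, had 14, 100 and 72 tags in Alyref against 3, 28 and 15 in Chtop. Its log2 difference was 1.58 (SE 0.38, adjusted p = 0.00581, edgeR). CARS2 (chr13:111293759-111365950, minus strand, 15 exons) had 8, 123 and 98 tags against 2, 45 and 21, a log2 difference of 1.27 (SE 0.33, adjusted p = 0.0118, edgeR). VARS1, the cytosolic valyl enzyme, had 11, 79 and 61 against 1, 32 and 19, a difference of 1.14 (SE 0.35, adjusted p = 0.0283, edgeR). For MARS1 the difference was 0.96 (SE 0.29, adjusted p = 0.0271, edgeR). None of these 4 calls stood in the DESeq2 Wald test, which called 2.28% of all genes, and none was left without Alyref replicate 2, Alyref replicate 3 or Chtop replicate 3.

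Many synthetase genes were too low for that filter, and intron tags weigh differently on genes of different length. With exon tags only and at least 30 of them over the 12 libraries, a setting chosen after the data had been seen, 34 of the 36 genes could be tested. Of these, 14 were higher and 1 was lower in Alyref than in Chtop (edgeR quasi-likelihood test, Benjamini-Hochberg over 9512 genes), where 17.3% of all genes passed, 9.74% higher and 7.55% lower. The median of the 34 was 0.89, positive in 30, against 0.02 over all genes. Without TMM scaling the median of all genes moved to -0.26 and that of the synthetases to 0.59, and 5 genes were called higher, CARS2, FARSB, QARS1, RARS2 and VARS1, with MARS2 again lower. The 15 calls became 4 without Alyref replicate 2, 5 without Alyref replicate 3 and 9 without Chtop replicate 2 or Chtop replicate 3.

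The differences in exon tags were largest for QARS1 and RARS2. QARS1 (chr3:49133365-49142563, minus strand, 24 exons), the glutaminyl enzyme of the complex, had 7, 66 and 44 exon tags in Alyref against 1, 16 and 5 in Chtop. Its log2 difference was 2.29 (SE 0.41, adjusted p = 6.41e-06, edgeR), and that of RARS2 was 2.26 (SE 0.39, adjusted p = 2.02e-06, edgeR). Both are genes of short exons. The other genes called higher in Alyref were FARSA at 1.66, FARSB at 1.62, CARS2 at 1.60, CARS1 at 1.52, VARS1 at 1.47, SARS2 at 1.38, TARS2 at 1.34, MARS1 at 1.33, GARS1 at 1.32, TARS1 at 1.25, IARS1 at 1.03 and VARS2 at 0.91. They include both subunits of the cytosolic phenylalanyl enzyme, FARSA and FARSB, and both cysteinyl and both valyl enzymes, cytosolic and mitochondrial. LARS1 and AARS1, though among the most heavily tagged, did not pass.

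The gene that went the other way was MARS2 (chr2:198570093-198573119, plus strand), the mitochondrial methionyl enzyme with its single exon. It had 2, 10 and 14 tags in Alyref and 4, 22 and 35 in Chtop, a log2 difference of -1.31 (SE 0.45, adjusted p = 0.0270, edgeR). The CPM was higher in Chtop in each replicate. In Nxf1 and in the Control it had 1 tag each, so that its share of all tags in Chtop was 18.4 times that in Nxf1 with a 95% counting interval of 3.18 to 739, and 5.44 times that in Control with an interval of 0.941 to 218. The latter interval includes 1.

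Across the 36 genes the balance of the TREX subunits went with exon length. The log2 ratio of Alyref to Chtop CPM in canonical exons correlated with the log2 of the mean exon length at Pearson r = -0.76 and Spearman rho = -0.77 over 36 genes. This is a description across genes, which share the same libraries and are not independent. Without MARS2 and PARS2, the genes of the longest mean exon, r was -0.59 and rho -0.72 over 34 genes. With replicate 2 alone r was -0.68, and with replicate 3 alone it was -0.69. Over 9193 protein-coding genes r was -0.55 and rho -0.57, so that the relation was not particular to the synthetases.

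**Figure D2:**
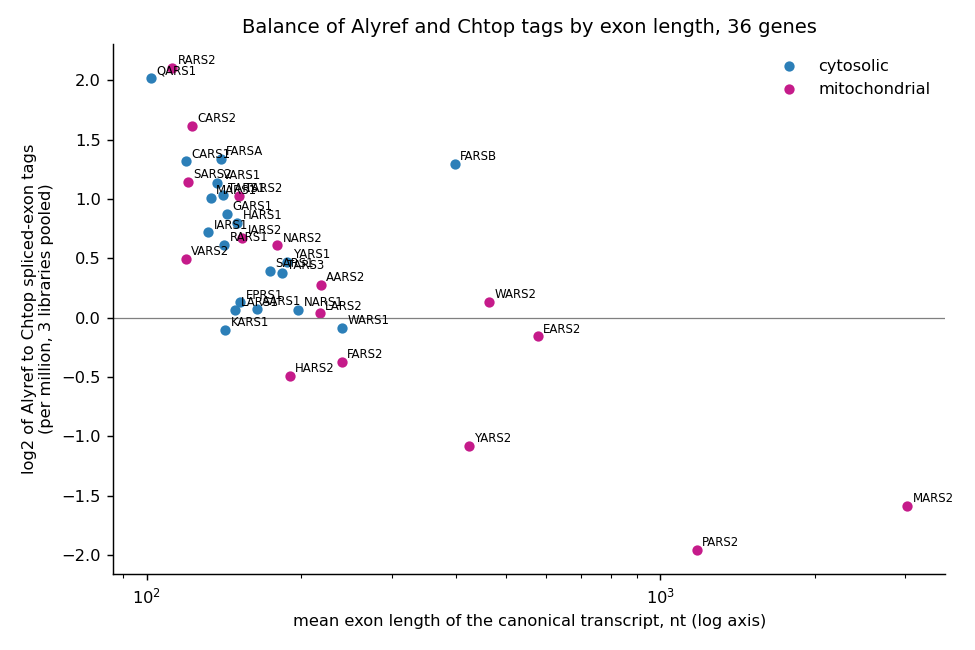
Log2 ratio of Alyref to Chtop CPM in the canonical exons, pooled over the libraries of each factor, against mean exon length in nt (log scale), 1 point per synthetase gene, cytosolic and mitochondrial genes in different colours. RARS2 and QARS1 with exons of about 100 nt lie highest, MARS2 and PARS2 with the longest exons lie lowest, and FARSB lies above the trend.

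At the upper end RARS2 had 97 canonical exon tags in Alyref and 17 in Chtop with a mean exon of 112 nt, a ratio of 2.10 on the log2 scale. QARS1 had 107 and 20 tags with a mean exon of 102 nt, a log2 ratio of 2.02. These genes have the shortest mean exons of the list. At the lower end stood PARS2 with 6 and 19 tags, a log2 ratio of -1.96 and a mean exon of 1178 nt, MARS2 at -1.59, and YARS2, the mitochondrial tyrosyl enzyme, at -1.08 with 423 nt. FARSB departed from the trend at 1.30 with a mean exon of 398 nt. Its mean is set by a last exon of 5124 nt, while its middle exons have a median of 93 nt. The median log2 ratio of the synthetases was 0.48 and that of all protein-coding genes -0.36.

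Grouping exons by place and length gave the same order within the list. In Alyref the density was 32.5 CPM per kb in first exons, 42.8 in middle exons under 100 nt, 30.5 in those of 100 nt up to 200 nt, 21.4 in those of 200 nt or more and 10.7 in last exons. In Chtop these 5 densities were 21.0, 16.7, 16.6, 17.9 and 18.5, nearly level. In the Control, with only 44 such tags, they were 5.04, 6.45, 5.65, 3.88 and 2.47. The fall from short middle exons to last exons was thus also met in the FLAG-only background. Short middle exons over long ones gave a log2 ratio of 1.11 ± 0.27 (SD, n = 3) in Alyref and -0.05 ± 0.09 (SD, n = 3) in Chtop, and the libraries of the 2 factors did not overlap. All protein-coding genes gave 0.99 ± 0.014 (SD, n = 3) and -0.85 ± 0.30 (SD, n = 3). For all protein-coding genes the Control was at 0.82, 0.74 and 0.18 in replicates 1 to 3. The Chtop value of the synthetases was made up of cytosolic genes at -0.33, 0.11 and -0.014 in replicates 1 to 3 and mitochondrial genes at 1.46, -0.49 and -0.52, where replicate 1 held only 39 tags on the mitochondrial genes. In the 2 deep libraries the mitochondrial genes thus had more Chtop in long than in short middle exons, as all protein-coding genes did, and the cytosolic genes were near 0. These differences were not tested.

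**Figure D3:**
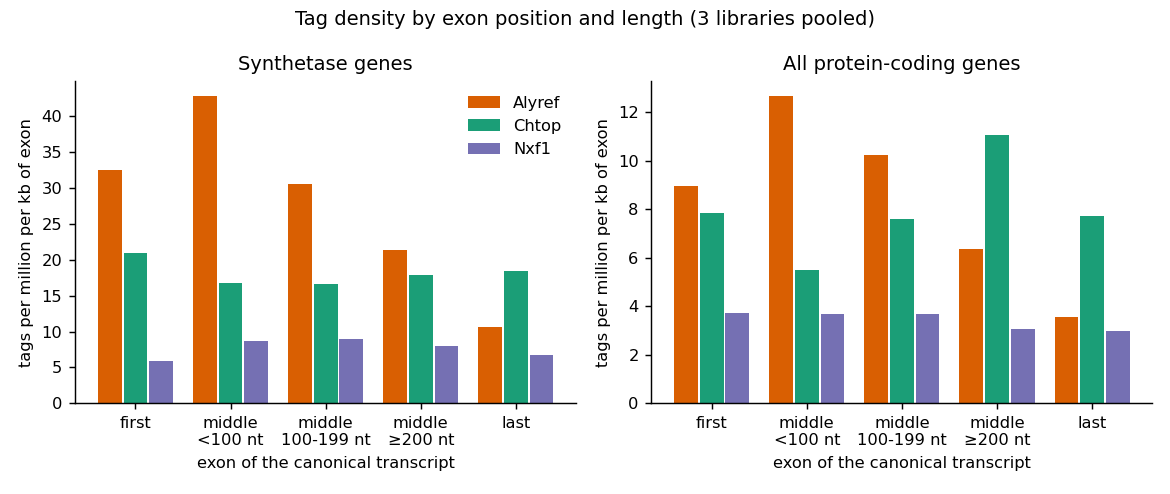
CPM per kb in first exons, middle exons of 3 length classes and last exons, pooled over the 3 libraries of Alyref, Chtop and Nxf1, for the synthetase genes on the left and all protein-coding genes on the right, with different vertical scales. Alyref falls from 42.8 in short middle exons to 10.7 in last exons of the synthetases, while Chtop stays between 16.6 and 21.0. The Control is not drawn.

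Cytosolic and mitochondrial genes shared the Alyref order. Short middle exons had 50.4 CPM per kb and last exons 13.9 in the cytosolic genes, against 28.8 and 7.41 in the mitochondrial genes. In Chtop, last exons had 27.2 in the cytosolic and 9.54 in the mitochondrial genes. First exons of the mitochondrial genes had 24.97 in Chtop and 23.8 in Alyref, and those of the cytosolic genes 16.3 and 42.8. With its libraries pooled, Chtop was thus densest in the last exons of the cytosolic genes and in the first exons of the mitochondrial genes, a difference that was not tested. The first exon of YARS2, 802 nt long, alone held 32 of the 90 Chtop tags in first exons of mitochondrial genes. In the shallow Chtop replicate 1 those first exons were at 5.99 CPM per kb, below middle exons at 12.9.

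By region, coding sequence took 54.5% ± 4.1 (SD, n = 3) of the synthetase tags in Alyref and 48.9% ± 4.6 (SD, n = 3) in Chtop, against 32.0% and 30.9% over all protein-coding genes. The 3′ UTR took 5.47% ± 0.92 (SD, n = 3) in Alyref and 17.2% ± 2.8 (SD, n = 3) in Chtop, against 14.5% and 28.5% over all protein-coding genes. Within the list the lowest Chtop library, at 15.5%, lay above the highest Alyref library, at 6.53%. The share of junction-flanking tags that lay 75 to 24 nt before an exon junction was 27.5% ± 6.1 (SD, n = 3) in Alyref and 25.4% ± 1.7 (SD, n = 3) in Chtop, a difference within the spread. Alyref replicate 1 was at 20.5% of only 78 tags. Alyref replicates 2 and 3, at 30.3% and 31.6%, lay above the highest Chtop library at 26.9%. Over all protein-coding genes the libraries ran from 28.6% to 29.9% in Alyref and from 25.1% to 25.7% in Chtop. For the same genes, replicates 1 to 3 were at 29.1%, 28.9% and 26.045% in Control and 27.5%, 26.2% and 26.99% in Nxf1. Control replicates 1 and 2 thus lay within the Alyref range, so that a share at the Alyref level was also met in the FLAG-only background. These differences were not tested. The crosslinked base was uracil in 52.4% ± 2.0 (SD, n = 3) of Alyref and 58.5% ± 0.9 (SD, n = 3) of Chtop tags on these genes, where all protein-coding genes had 54.7% and 54.8%.

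The balance of the last exon against the other exons of each gene was tested next, which asks whether a factor sits nearer to the 3′ end of the same mRNA. Of 27 synthetase genes with enough tags 9 passed between Alyref and Chtop, all with less last-exon signal in Alyref (edgeR quasi-likelihood test of the interaction, Benjamini-Hochberg over 6996 genes). Over all genes 27.3% passed, 27.2% lower and 0.129% higher. The median of the 27 was -1.48 and that of all genes -1.41, so that the synthetases followed the general balance. None of the 27 passed in the other 5 contrasts, where 0.200% of all genes passed in Alyref against Nxf1, 0.257% in Chtop against Nxf1 and at most 0.0143% in those against Control. At an unadjusted p under 0.05, 1 gene stood in Chtop against Control, 3 in Alyref against Nxf1 and 2 in Chtop against Nxf1, with 0 in the remaining contrasts. On simulated data the last-exon test recovered 12.2% of genes made to differ 4-fold between Alyref and Chtop, so that it missed most such differences.

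**Figure D4:**
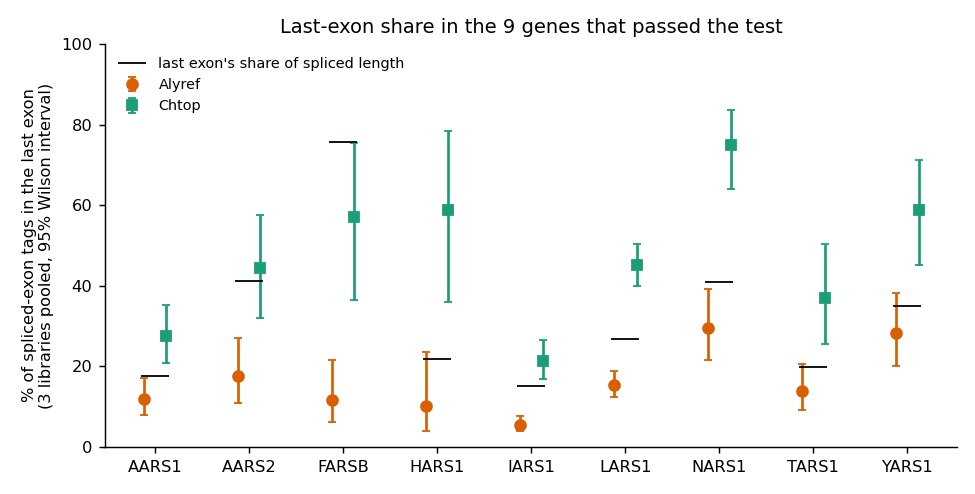
Percentage of canonical exon tags that lie in the last exon in Alyref and Chtop, 3 libraries pooled with 95% Wilson intervals, for the 9 genes that passed, with a black line at the last exon's share of the spliced length. Alyref lies below that line in all 9 genes, and Chtop lies above it in all but FARSB.

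LARS1, whose last exon is 1278 nt long, had 2, 34 and 34 last-exon tags of 22, 251 and 185 in all canonical exons in Alyref, and 6, 58 and 88 of 14, 144 and 179 in Chtop. The last exon held 15.3% of these tags in Alyref and 45.1% in Chtop, a log2 difference of ratios of -2.17 (SE 0.33, adjusted p = 9.39e-09, edgeR). The share was lower in Alyref in each replicate. IARS1 had 3, 12 and 17 last-exon tags of 37, 309 and 243 in Alyref and 3, 25 and 31 of 12, 129 and 135 in Chtop. These are 5.43% and 21.4%, with a log2 difference of -2.21 (SE 0.41, adjusted p = 4.31e-06, edgeR). NARS1, the asparaginyl enzyme (chr18:55267888-55289445, minus strand, 14 exons), had 0, 11 and 18 of 3, 48 and 47 in Alyref and 1, 31 and 22 of 1, 43 and 28 in Chtop, which is 29.6% in Alyref against 54 of 72 tags in Chtop. Its log2 difference was -2.82 (SE 0.62, adjusted p = 0.000150, edgeR). These 3 genes passed with any 1 library left out.

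The other 6 genes had fewer tags or smaller differences. HARS1, the cytosolic histidyl enzyme, had 10.3% of 39 Alyref tags and 58.8% of 17 Chtop tags in its last exon, a log2 difference of -3.48 (SE 1.16, adjusted p = 0.0159, edgeR). FARSB had 11.8% of 68 and 57.1% of 21, a log2 difference of -3.14 (SE 0.97, adjusted p = 0.00839, edgeR). AARS1 at -1.47, AARS2 (mitochondrial alanyl) at -1.85, TARS1 (cytosolic threonyl) at -1.80 and YARS1 (cytosolic tyrosyl) at -1.83 had adjusted p from 0.0229 to 0.0385 (edgeR). The count of 9 became 3 without Alyref replicate 2 and 4 without Chtop replicate 2 or Chtop replicate 3.

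**Figure D5:**
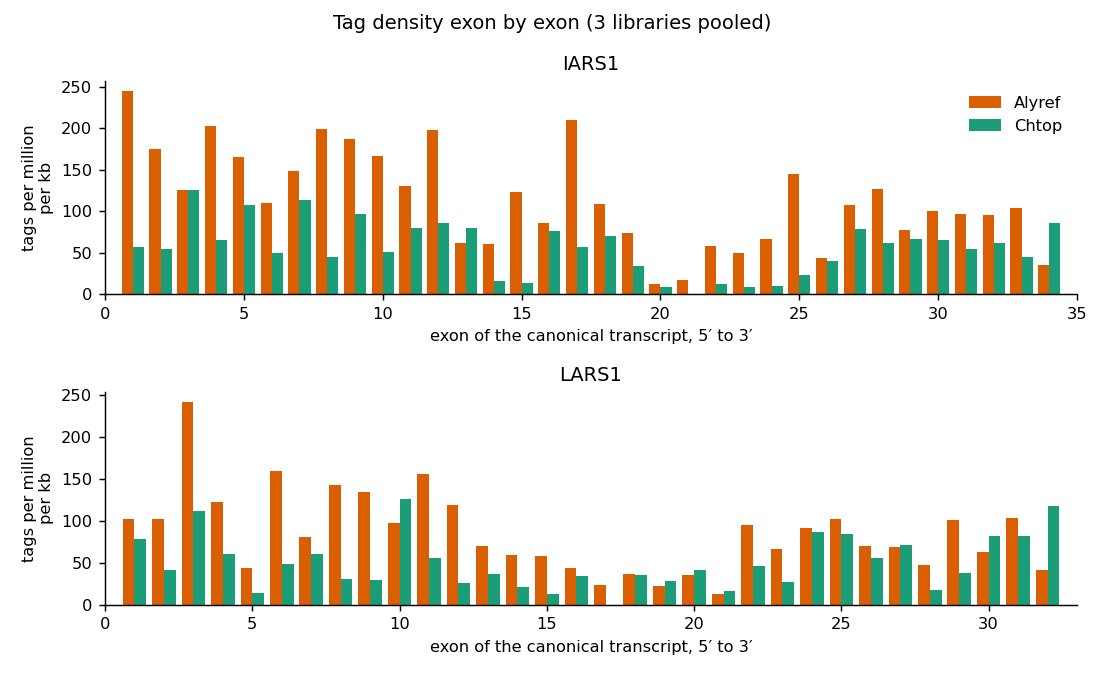
CPM per kb in each exon of the canonical transcript of IARS1 and LARS1, by exon number from the 5′ end, pooled over the 3 libraries of Alyref and of Chtop. Alyref is highest in exon 1 of IARS1, with 28 tags in 87 nt, and Chtop lies above Alyref in the last exon of both genes.

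Along IARS1, exon 1 of 87 nt had 28 Alyref and 5 Chtop tags and exon 2 had 29 and 7, whereas the last exon of 683 nt had 32 and 59. Exons 20 to 24 of IARS1 were low in both, with 2 to 9 Alyref tags and at most 1 Chtop tag each. In LARS1 exon 10 of 226 nt had 29 tags in each factor, and the last exon 70 in Alyref and 152 in Chtop. LARS1 exon 17 had 2 and 0. NARS1 had 29 and 54 tags in its last exon, and in Chtop no other exon had more than 3. In each of these 3 genes the last exon was the exon with the most Chtop tags, but it was also the longest exon. Per nt it was the densest in Chtop only in NARS1, with 54 tags in 1128 nt. In IARS1 exon 3 was denser, with 20 Chtop tags in 157 nt against 59 in 683 nt. In LARS1 exon 10 was denser, with 29 in 226 nt against 152 in 1278 nt.

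Intron tags were 25.01% ± 3.4 (SD, n = 3) of the synthetase tags in Alyref, 21.9% ± 6.1 (SD, n = 3) in Chtop and 61.8% ± 20.0 (SD, n = 3) in Control. Over all protein-coding genes these shares were 42.2%, 31.0% and 67.7%. The synthetase share in Alyref was higher in mitochondrial genes at 36.1% ± 3.2 (SD, n = 3) than in cytosolic genes at 19.8% ± 3.6 (SD, n = 3). This was not particular to Alyref. In replicates 1 to 3 of Chtop the shares were 35.9%, 31.9% and 18.4% against 18.2%, 23.8% and 13.6%. In Control they were 70%, 81.25% and 86.7% against 26.3%, 50% and 72.2%. Nxf1 replicates 2 and 3 had 58.2% and 70.4% against 33.5% and 48.4%. Over all 36 genes the Nxf1 libraries held 0%, 41.4% and 58.1%, where the 0% comes from 17 tags and allows up to 17.6%. No Nxf1 mean is therefore given.

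The genes with the most intron tags over the factor libraries were FARS2 with 359, CARS2 with 168, LARS1 with 153, IARS1 with 139 and FARSB with 113. FARS2 (chr6:5261277-5829425, plus strand), the mitochondrial phenylalanyl enzyme, has a gene body of 568149 nt for 1679 nt of exon, and 91.7% of its 240 Alyref tags and 77.8% of its 108 Chtop tags were intronic. Per kb of intron, however, FARS2 was low, at 0.297 CPM per kb in Alyref against 1.05 for IARS1. Its many intron tags went with its length. CARS2 had 45.0% of 229 Alyref tags in introns and 44.1% of 68 Chtop tags, against 9.76% and 9.73% in IARS1.

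The intron to exon ratio of single genes was tested in 32 synthetase genes and rarely differed. In Chtop against Control 1 passed and in Chtop against Nxf1 2 passed (edgeR quasi-likelihood test of the interaction, Benjamini-Hochberg over 10179 genes), where 7.65% and 15.1% of all genes did, all lower in the former and 0.0589% higher in the latter. In the other contrasts 0 passed, with 0.0393% of all genes called in Alyref against Control and in Alyref against Chtop, 0.00% in Nxf1 against Control and 0.187% in Alyref against Nxf1, and at an unadjusted p under 0.05 there were 8 in Alyref against Control, 1 in Nxf1 against Control, 2 in Alyref against Chtop and 5 in Alyref against Nxf1. On simulated data this test recovered 2.65% of genes made to differ 4-fold between Alyref and Chtop, so that it missed most such differences. With a replicate block, 0 genes passed in either Chtop contrast.

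LARS2, the mitochondrial leucyl enzyme, had 36 exon and 21 intron tags in Chtop and 9 tags in Control, all in introns (adjusted p = 0.0373, edgeR). The fitted log2 value of -8.10 is no measure of size, since 0 of 9 Control tags in exons allows a share of up to 33.3%. NARS1 had 1, 44 and 31 exon and 0, 4 and 5 intron tags in Chtop and 0, 4 and 3 against 0, 7 and 2 in Nxf1, a log2 difference of -3.30 (adjusted p = 0.0378, edgeR). EARS2, the mitochondrial glutamyl enzyme, had 10.0% of 50 Chtop and 57.1% of 21 Nxf1 tags in introns, a log2 difference of -3.25 (adjusted p = 0.0418, edgeR). Of the 11 intron tags of EARS2 in Nxf1 replicate 3, 5 lay at 1 base. Without Nxf1 replicate 3 its difference was -0.77 and its adjusted p 0.886 (edgeR).

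Intron tags gathered at the ends of introns. The last 20 nt before an exon make up 0.614% of the intron sequence of these genes but held 5.91% of the 1488 Alyref intron tags (95% Wilson interval 4.83% to 7.23%) and 7.04% of the 625 Chtop intron tags (5.29% to 9.32%). In Nxf1 the share was 2.86% of 350 (1.56% to 5.18%) and in Control 3.20% of 125 (1.25% to 7.94%). These values pool the libraries of a group, and single libraries differed. In replicates 1 to 3 the share was 13.2%, 6.05% and 5.10% in Alyref and 10.7%, 3.85% and 13.8% in Chtop. The intervals of Chtop replicate 2 (2.38% to 6.16%) and replicate 3 (9.53% to 19.6%) did not overlap. The first 20 nt of introns held 0.605% in Alyref and 0.480% in Chtop, near their share of the sequence. Over all protein-coding genes, with 0.352% of intron sequence, the acceptor shares were 2.86% in Alyref and 3.16% in Chtop.

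Within this window the tags sat on few bases. Of 88 Alyref tags 26 lay 1 nt and 30 lay 3 nt before the exon, and of 44 Chtop tags 8 and 15 did. The base 3 nt before the exon is the one marked in the LARS1 intron sequences above. The crosslinked base was taken as the base before the read, so that a read that starts at the first base of an exon puts its tag 1 nt inside the intron, and spliced and unspliced RNA cannot be told apart there.

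Nxf1 was the shallowest factor, and its comparisons rest on 1 to 62 tags a gene. Against Nxf1, Alyref was higher on 3 of 14 genes, where 4.22% of all genes passed and 2.64% were higher, and Chtop differed on 5 of 14, where 23.8% passed. VARS2 passed in both, with a log2 difference of 2.69 for Alyref (SE 0.49, adjusted p = 0.00234, edgeR) and 2.09 for Chtop (SE 0.52, adjusted p = 0.00593, edgeR). The Alyref and Chtop comparisons share the Nxf1 libraries. IARS1 at 1.74 (adjusted p = 0.0252) and MARS1 at 1.55 (adjusted p = 0.0210, edgeR) were the other genes higher in Alyref than in Nxf1. Without Nxf1 replicate 2 or Nxf1 replicate 3 none of the 3 passed, and 1 passed without Alyref replicate 2 or Alyref replicate 3.

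Of the genes called between Chtop and Nxf1, 4 were lower in Chtop, CARS2 at -1.53, RARS2 at -1.32, IARS2 at -1.27 and VARS1 at -1.18, with adjusted p from 0.00805 to 0.0484 (edgeR), where 9.78% of all genes were lower. CARS2 had 0, 15 and 36 tags in Nxf1 and 27 of the 36 were intronic. RARS2 had 0, 12 and 18 tags in Nxf1, with 14 of the 18 in introns. With exon tags only, 5 of 34 genes were called, GARS1 and IARS2 lower and HARS2, MARS2 and VARS2 higher in Chtop, where 14.2% of all genes passed. HARS2 has no exon tag in Nxf1. Without TMM scaling the median of all genes moved from 0.30 to 1.08 in that comparison and 7 genes were called, all higher in Chtop, so that the split of calls between directions depends on the scaling. GARS1 and IARS2 were then at -1.21 and -0.91 and did not pass (adjusted p = 0.107 and 0.199, edgeR). The count of 5 from all tags fell to 0 without Nxf1 replicate 3, 1 without Chtop replicate 3, 2 without Nxf1 replicate 2, Alyref replicate 2 or Alyref replicate 3, and 3 without Control replicate 1 or Control replicate 3.

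Against the FLAG-only Control, which had 195 tags on the 36 genes, few differences could be resolved. In Alyref 0 of 14 genes passed (edgeR), with 0.0259% of all genes, and 6 stood at an unadjusted p under 0.05 (0 by DESeq2). In Nxf1 0 of 14 passed, with 0.00% of all genes, and 0 stood at an unadjusted p under 0.05 (0 by DESeq2). In Chtop 3 of 14 passed, with 13.5% of all genes, 9.24% higher and 4.22% lower. AARS1 was higher, with a log2 difference of 1.74 (SE 0.56, adjusted p = 0.0365, edgeR) with 5 Control tags in all. VARS2 was higher (adjusted p = 0.0362, edgeR), with 2 Control tags, and its share of tags was 6.87 times that in Control with a 95% counting interval of 1.87 to 57.2. RARS2 was lower, with a log2 difference of -1.94 (SE 0.60, adjusted p = 0.0324, edgeR), yet 14 of its 16 Control tags were in replicate 2, and without that library the difference was -0.017 (adjusted p = 0.994, edgeR). The count of 3 became 1 without Control replicate 2 and 0 without Control replicate 3 or Chtop replicate 3.

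With exon tags only, 4 of 34 genes were higher in Alyref than in Control, where 1.62% of all genes passed. They were VARS2 at 3.23, AARS1 at 2.98, LARS1 at 2.00 and IARS1 at 1.95 on the log2 scale, with adjusted p from 0.0149 to 0.0402 (edgeR). These are 4 of the genes of highest density. In Chtop 0 of 34 passed at this setting, where 7.15% of all genes did. Without TMM scaling 0 genes passed in Alyref and 2 in Chtop.

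Enzymes of the same amino acid were alike in some pairs and apart in others. HARS1 and HARS2 are neighbours on chromosome 5 with opposite strands. HARS1 had 1, 38 and 24 tags in Alyref and 1, 19 and 7 in Chtop, and HARS2 1, 25 and 17 against 1, 21 and 20, so that the canonical exon ratio of Alyref to Chtop was 0.80 for HARS1 and -0.49 for HARS2 on the log2 scale. Only 69 of the 89 HARS2 tags lay in 1 gene. TARS1 had 9, 104 and 84 tags in Alyref and TARS3, a second cytosolic threonyl enzyme, had 2, 40 and 35, and 25.9% of the former and 54.5% of the latter were intronic. FARSA and FARSB, which form 1 enzyme, had 68 and 127 tags in Alyref and 19 and 62 in Chtop, and their canonical exon ratios were close at 1.34 and 1.30 despite their different last exons of 408 and 5124 nt. Between compartments the pooled ratios were also close for TARS1 and TARS2 at 1.03 each, IARS1 and IARS2 at 0.72 and 0.67, and LARS1 and LARS2 at 0.07 and 0.04. In replicates 2 and 3, however, LARS1 was at 0.57 and -0.44 and LARS2 at -0.43 and 0.82. The pooled ratios were far apart for MARS1 and MARS2 at 1.01 and -1.59, YARS1 and YARS2 at 0.47 and -1.08, and RARS1 and RARS2 at 0.61 and 2.10. Whether the members of a pair differed was not tested.

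Of 15 other genes of tRNA charging, with the scaffold proteins of the complex, the tRNA exporter XPOT and the enzymes of selenocysteine and mitochondrial glutamine tRNAs among them, 2 could be tested for tags per gene and 0 passed in any contrast. For the last exon, 3 of 6 were lower in Alyref than in Chtop, GATC at -3.13, SEPSECS at -3.12 and XPOT at -1.19, with adjusted p from 0.00745 to 0.0241 (edgeR) and the same 27.2% over all genes. XPOT had 1, 20 and 22 last-exon tags of 15, 127 and 119 in Alyref and 1, 34 and 33 of 3, 104 and 113 in Chtop. The intron to exon ratio was lower in Chtop than in Control for GATC, MTFMT and XPOT, 3 of 11 tested, where 7.65% of all genes were lower. It was lower than in Nxf1 for GATC and XPOT, 2 of 11, where 15.1% of all genes were.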

How the data were processed

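Tags on 36 listed aminoacyl-tRNA synthetase genes were counted in 12 iCLIP libraries, 3 each of Alyref, Chtop, Nxf1 and Control, which were sequenced in 32 lane runs. The files hold deposited counts of deduplicated tags at single bases. Before counting, the authors filtered out phiX (Bowtie 1.1.2), took up random barcodes with UMI-tools 0.5.3, demultiplexed with Reaper, aligned with STAR 2.4.2a to hg19 (versions per the labels), kept uniquely mapped reads, merged the lanes and collapsed duplicates by barcode. The authors took the crosslinked base as the most 5′ deletion of a read or the base ahead of it. Unique mapping leaves out reads that fit near-identical copies, and the barcodes make a tag 1 cDNA. Pooled files of each group were not used, and 0 other per-sample columns were left aside.

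Tags were placed on GENCODE release 44 lifted to GRCh37, on the strand of the gene, with an exon being any annotated exon of the gene and the canonical transcript used for exon position and length. A tag in overlapping genes counted for each. The members, gene lists and tests were chosen with earlier results of these data known. Replicates were grouped by the labels, and their numbers coincide with the lane sets, each of which held every group.

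For tags per gene, edgeR 4.0.16 supplied the quasi-likelihood test (TMM scaling, filterByExpr, all libraries in 1 fit, 6 contrasts) in R 4.3.3, with Benjamini-Hochberg adjustment over all genes and a threshold of 0.05. Parts of a gene were tested as an interaction with library as a block, in genes with at least 10 tags in each part. Shares carry 95% Wilson intervals, and a count of 0 was read as up to 3. On simulated data the test of tags per gene recovered 99.5% of 4-fold changes between Alyref and Chtop over 3347 genes, the intron test 2.65% over 9705 and the last-exon test 12.2% over 6491. Genes were named if they passed any test, if they were among the 4 cytosolic or 4 mitochondrial genes of highest density or the 5 with most intron tags, or if they were MARS2, HARS1, HARS2, TARS1, TARS3, FARSA or FARSB, and this named 23. Alternatives were DESeq2 1.42.0, other scalings and filters, tags in 1 gene only, canonical exons, a replicate block, and leaving out libraries. Python 3.11.15, numpy 2.4.6, scipy 1.17.1 and matplotlib 3.10.9 were used.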

Additional observations from a re-analysis of the deposited data

Results flagged for a closer look

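The test of a difference in the balance within a gene between groups picked out 12 results on 11 genes, all from the comparison of parts of a gene and each already described above. For the last exon against the other exons, Alyref against Chtop, the log2 values were -1.47 for AARS1, -1.85 for AARS2, -3.14 for FARSB, -3.48 for HARS1, -2.21 for IARS1, -2.17 for LARS1, -2.82 for NARS1, -1.80 for TARS1 and -1.83 for YARS1. For introns against exons they were -8.10 for LARS2 in Chtop against Control, and -3.25 for EARS2 and -3.30 for NARS1 in Chtop against Nxf1. Groups of 3 libraries were not searched for single libraries far from the others.

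The values of IARS1, LARS1 and NARS1 in the last exon stayed past the threshold with any library left out, while the 3 intron values did not. Without Nxf1 replicate 3 the value of EARS2 was -0.77, and that of LARS2 rests on a Control with 9 tags and gives no size.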

How the results depend on the processing

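No gene called in the tests as reported changed direction in the alternatives run for it, except RARS2 in Chtop against Control, which was at 0.19 (adjusted p = 0.938, edgeR) with exon tags only and without Control replicate 2. Depth limits the Control and Nxf1 comparisons, where most members have under 10 or under 30 tags in a group. In tags, 3 equal 4.75 CPM in Alyref replicate 2 and 428 CPM in Control replicate 1. Settings with exon tags only, at least 30 tags per gene, or without replicate 1 of each group were chosen after seeing the data.

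Counts of synthetase genes called moved by over 1.5 times as follows. Alyref against Control, 0 as reported, became 1 with at least 30 tags, without a filter, without TMM or with the replicate block, 4 with exon tags only, and 2 without replicate 1 of each group or 3 with exon tags as well. Chtop against Control, 3 as reported, became 1 by DESeq2, 0 without a filter or with exon tags only, 5 without replicate 1 of each group and 1 with exon tags as well. Alyref against Chtop, 4 as reported, became 0 by DESeq2, 2 without a filter, 15 with exon tags only, 8 without replicate 1 of each group and 17 with exon tags as well. Alyref against Nxf1, 3 as reported, became 7 without replicate 1 of each group, 6 with exon tags as well, and 11 with exon tags and no TMM. Chtop against Nxf1, 5 as reported, became 1 by DESeq2, 2 without a filter or TMM, 3 with at least 30 tags or the replicate block, and 9 without replicate 1 of each group. The intron test in Chtop against Control, 1 as reported, became 2 with at least 30 tags, 3 without replicate 1 of each group and 0 with the replicate block, which also took that in Chtop against Nxf1 from 2 to 0. The causes were not tested.

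The replicate block was only an alternative, because not every pair of libraries with the same number deviated together. Over 18 such pairs the correlation ran from -0.17 to 0.33 and was over 0.1 in 5, and over 36 pairs of other numbers it ran from -0.34 to 0.27 and was over 0.1 in 2. With the replicate block 7 genes passed in the last-exon test of Alyref against Chtop and 4 in tags per gene.

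Leaving out each library in turn, the counts ranged from 0 to 1 in Alyref against Control (1 without Alyref replicate 1, Chtop replicate 1, Chtop replicate 2 or Control replicate 1), 0 to 4 in Chtop against Control, 0 to 6 in Alyref against Chtop (4 to 15 with exon tags), 0 to 3 in Alyref against Nxf1 and 0 to 7 in Chtop against Nxf1. For intron against exon they ranged from 0 to 3 in Chtop against Control, 0 to 1 in Alyref against Chtop (1 without Chtop replicate 2) and 0 to 5 in Chtop against Nxf1, and for the last exon from 3 to 9 in Alyref against Chtop. Both intron counts were 0 without Alyref replicate 2, Alyref replicate 3 or Chtop replicate 3. Without the gene with most tags the summed share of a library was 0.352% in Alyref, 0.225% in Chtop and 0.193% in Nxf1. With only canonical exons as exon, the intron share was 37.4% in Alyref and 32.3% in Chtop.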

Other observations

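Bases with at least 4 tags in 1 library numbered 7 on the synthetase genes and lay in EARS2, EPRS1, LARS1, RARS2, TARS1 and YARS1. At each of them every tag came from that single library. The highest was a base in an exon of LARS1 with 6 tags in Chtop replicate 3. In EARS2, RARS2 and TARS1 they were intron bases of Nxf1 replicate 3 with 5, 5 and 4 tags, and in YARS1 an intron base of Chtop replicate 2 with 4. EPRS1 and LARS1 each also had an exon base with 4 tags, in Chtop replicate 3 and in Alyref replicate 3.

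SEPSECS, which completes selenocysteine on its tRNA, had 39 of its 44 canonical exon tags of Chtop (88.6%) in the last exon against 8 of 18 in Alyref. WARS1, the cytosolic tryptophanyl enzyme, had a high last-exon share in both factors, with 55.6% of 27 Alyref tags and 63.6% of 22 Chtop tags, and was named after its values were seen. The last-exon test of SEPSECS between these factors is given above.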
